A study of Mus musculus with 9 samples.

Results

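Cthrc1, Lrrc15, Adam12, Fap, Runx1, Runx2 and Pdpn are genes used to recognise activated myofibroblasts and the fibroblasts of fibrotic tissue, and they were followed by name through RNA-Seq of vascular progenitor cells exposed to TGF-β1. The 7 genes were listed by symbol, by a rule that uses no measured value but with earlier results of these data known, among 55416 Ensembl genes in the count table, and all 7 were among the 14879 genes that had enough reads to be tested. The cells were AdvSca1-SM cells, which are progenitors of smooth muscle origin that carry Sca1 at their surface and live in the outer layer of arteries. They were sorted for YFP and Sca1 from the aorta and carotid arteries of pooled 8-week-old mice in which Cre, driven by the SM22α promoter, turns on a YFP reporter at ROSA26. They were expanded in culture before treatment, and the study states that medial smooth muscle cells bearing Sca1 could make up a portion of such preparations. Each of 3 groups had 3 libraries, and every culture received 0.1% DMSO for 72 h. Stem cells were labelled vehicle and, according to the study's text, grown in stem cell medium. TGF-β cells were growth arrested and given 5 ng/mL TGF-β1 in DMEM with 0.1% serum. Both cells were treated in the same way with 50 μM PFI-3, a compound directed at the Brg1 bromodomain (Brg1 is a chromatin remodeler), added to the TGF-β1. Medium and TGF-β1 therefore changed together between Stem and TGF-β, and their parts cannot be told apart, whereas TGF-β and Both differed in PFI-3. In these bulk libraries, fewer cells of one kind and less RNA per cell also cannot be told apart.

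Myofibroblasts arise when fibroblasts or related progenitors meet TGF-β, which signals through SMAD proteins, and they deposit and contract collagen-rich matrix. CTHRC1 is a secreted glycoprotein of collagen-producing fibroblasts, LRRC15 is a membrane protein of TGF-β-driven fibroblasts, and ADAM12 is a metalloprotease with a disintegrin domain found on profibrotic perivascular cells. FAP is a serine protease of the fibroblast surface, PDPN (podoplanin) is a mucin-like surface glycoprotein that binds ezrin and moesin inside the cell, and RUNX1 and RUNX2 are transcription factors that bind DNA together with CBFβ, RUNX2 being the regulator of the osteoblast lineage.

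Read as a single state, the 7 genes did not move together. Between Stem and TGF-β, 3 rose (Cthrc1, Lrrc15 and Adam12), 3 fell (Fap, Runx1 and Runx2) and Pdpn was not called. "Rose" and "fell" are used here for an adjusted p under 0.05 in the quasi-likelihood test of edgeR, adjusted over all tested genes by the Benjamini-Hochberg method. The 6 calls of 7 stand beside a background of 75.0% of all tested genes called in the same comparison, with 37.3% higher and 37.7% lower, so that the number of calls itself was near the background. Adding the study's minimum of a log2 fold change above 1 or below -1 left Cthrc1 and Lrrc15 on the higher side, beside 10.6% of all genes, and Fap on the lower side, beside 14.5%, which is 3 of 7 beside 25.1% in all. Adding PFI-3 changed 1 of the 7, Adam12, which fell, beside 8.92% of all genes called, 5.38% lower and 3.54% higher. No member had a 2-fold difference there by edgeR or by DESeq2, whereas 0.632% of all genes passed that minimum in edgeR, 0.470% lower and 0.161% higher. The 8.92%, which is 1327 genes, depends on single libraries. Leaving out Stem replicate 2 raised it to 2193 genes, and leaving out any 1 of the TGF-β libraries, Both replicate 1 or Both replicate 3 lowered it to between 639 and 788, while Adam12 stayed the 1 member called.

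Windows directly upstream of the annotated start were given for Lrrc15, Runx1, Runx2 and Pdpn, and they are shown for the gene with the largest rise and for the Runx genes, which fell together. Each is 250 bases from RefSeq on build GRCm38.p6, minus strand, written 5′ to 3′ and ending at the base before the start site. Capitals mark every match on either strand to the Runx motif TGTGGT, the SMAD motif CAGACA, the AP-1 motif TGANTCA or the TEAD motif GGAATG. None of these spellings overlaps another in these windows.
Lrrc15, chr16:30283255-30283504: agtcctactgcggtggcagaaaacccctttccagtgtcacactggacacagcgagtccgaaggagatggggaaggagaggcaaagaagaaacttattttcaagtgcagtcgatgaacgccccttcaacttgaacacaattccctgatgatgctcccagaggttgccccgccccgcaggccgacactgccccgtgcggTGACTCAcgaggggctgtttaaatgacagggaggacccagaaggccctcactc
Runx1, distal start, chr16:92826075-92826324: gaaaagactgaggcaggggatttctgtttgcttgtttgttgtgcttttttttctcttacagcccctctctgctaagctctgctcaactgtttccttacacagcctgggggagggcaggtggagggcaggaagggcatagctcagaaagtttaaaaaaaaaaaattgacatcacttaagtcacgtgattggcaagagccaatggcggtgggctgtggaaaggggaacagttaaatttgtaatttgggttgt
Runx1, proximal start, chr16:92697330-92697579: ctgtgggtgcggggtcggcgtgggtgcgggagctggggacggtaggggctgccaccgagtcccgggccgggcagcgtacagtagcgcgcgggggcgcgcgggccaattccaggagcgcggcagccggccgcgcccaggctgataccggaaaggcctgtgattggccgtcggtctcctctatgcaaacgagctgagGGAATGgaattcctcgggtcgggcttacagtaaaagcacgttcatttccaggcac
Runx2, chr17:44814628-44814877: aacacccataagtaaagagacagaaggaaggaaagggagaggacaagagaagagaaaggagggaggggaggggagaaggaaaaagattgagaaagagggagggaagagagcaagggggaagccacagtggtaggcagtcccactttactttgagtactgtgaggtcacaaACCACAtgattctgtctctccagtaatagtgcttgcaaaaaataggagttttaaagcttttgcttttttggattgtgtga
The Lrrc15 window held 1 AP-1 match that began 53 bases before the start, a motif present in 6.75% of 32851 windows of the same length over the genome's annotated starts. The 2 Runx1 windows differed in composition, with a GC content of 45.6% and 2 CpG dinucleotides at the distal start and 67.6% and 27 at the proximal start, where a TEAD match began 55 bases upstream. The 1 window given for Runx2 carried 1 Runx match on the other strand, 80 bases upstream, and no CpG. Any other start of Runx2 was not covered. The Runx motif was present in 14.0% of all windows, the TEAD motif in 12.6% and the SMAD motif, absent from all 5 member windows, in 17.1%. The Pdpn window had a GC content of 43.2% and none of the 4 motifs. A match describes the letters of a window and was not tested as a binding site.

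Levels are given as normalized counts, which are read counts scaled by edgeR's TMM factors to the mean library. Cthrc1 (ENSMUSG00000054196) was read at 296, 324 and 290 normalized counts in the Stem libraries, at 2845, 2904 and 2866 in TGF-β, and at 2699, 2813 and 2587 in Both. The TGF-β libraries lay within a narrow band far above Stem, and Both lay just below TGF-β without touching it. The means of Stem, TGF-β and Both were 303 ± 18.0, 2872 ± 29.8 and 2700 ± 113 (SD, n = 3 each). Cthrc1 rose by a log2 fold change of 3.24 (SE 0.0539, 95% interval 3.12 to 3.36, edgeR adjusted p = 3.23e-13) from Stem to TGF-β, a 9.47-fold difference. With PFI-3 the log2 difference from TGF-β was -0.089 (95% interval -0.19 to 0.0076, edgeR adjusted p = 0.248), an interval that a 2-fold fall lies outside. Between Stem and Both it was 3.15 (SE 0.0538, edgeR adjusted p = 4.78e-13).

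Lrrc15 (ENSMUSG00000052316) was close to the detection floor in Stem, at 6.28, 2.17 and 5.41 normalized counts. It reached 83.1, 77.1 and 92.8 in TGF-β and 70.2, 67.1 and 83.4 in Both. All 6 treated libraries exceeded every Stem library, and TGF-β and Both overlapped. The means were 4.62 ± 2.16, 84.3 ± 7.91 and 73.6 ± 8.63 (SD, n = 3 each), and 3 counts, the floor used here, correspond to between 2.63 and 3.26 normalized counts. The log2 fold change from Stem to TGF-β was 4.15 (SE 0.268, 95% interval 3.56 to 4.73, edgeR adjusted p = 3.05e-08), the 134th highest of the 14879 genes, whereas Cthrc1 was the 259th. The low Stem counts make its size less certain than that of Cthrc1, and a larger prior count of 2 lowered it to 3.70. PFI-3 gave a log2 difference of -0.19 (95% interval -0.54 to 0.15, edgeR adjusted p = 0.506).

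Adam12 (ENSMUSG00000054555) was the only member called in all 3 comparisons. It was read at 3456, 4073 and 3731 normalized counts in Stem, at 6986, 7295 and 7048 in TGF-β, and at 4949, 5743 and 5266 in Both. No library of one group reached the range of another, and Both lay between Stem and TGF-β. The means were 3753 ± 309, 7110 ± 163 and 5319 ± 399 (SD, n = 3 each). Adam12 rose 1.89-fold from Stem to TGF-β (log2 fold change 0.92, SE 0.0637, 95% interval 0.78 to 1.06, edgeR adjusted p = 5.62e-08). With PFI-3 it fell by 0.42 on the log2 scale (SE 0.0627, 95% interval -0.56 to -0.28, edgeR adjusted p = 0.00161), and 6.04% of all genes lay below it in that comparison. Both remained above Stem by 0.50 (SE 0.0635, edgeR adjusted p = 1.60e-05). Leaving out each library in turn kept the PFI-3 difference between -0.48 and -0.37, with edgeR adjusted p-values between 0.000151 and 0.0114. The predicted gene Gm19514 lies on the same strand within the span of Adam12, held only 10 to 71 counts, and went the other way between Stem and TGF-β (log2 fold change -2.45, edgeR adjusted p = 1.16e-05).

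**Figure D1:**
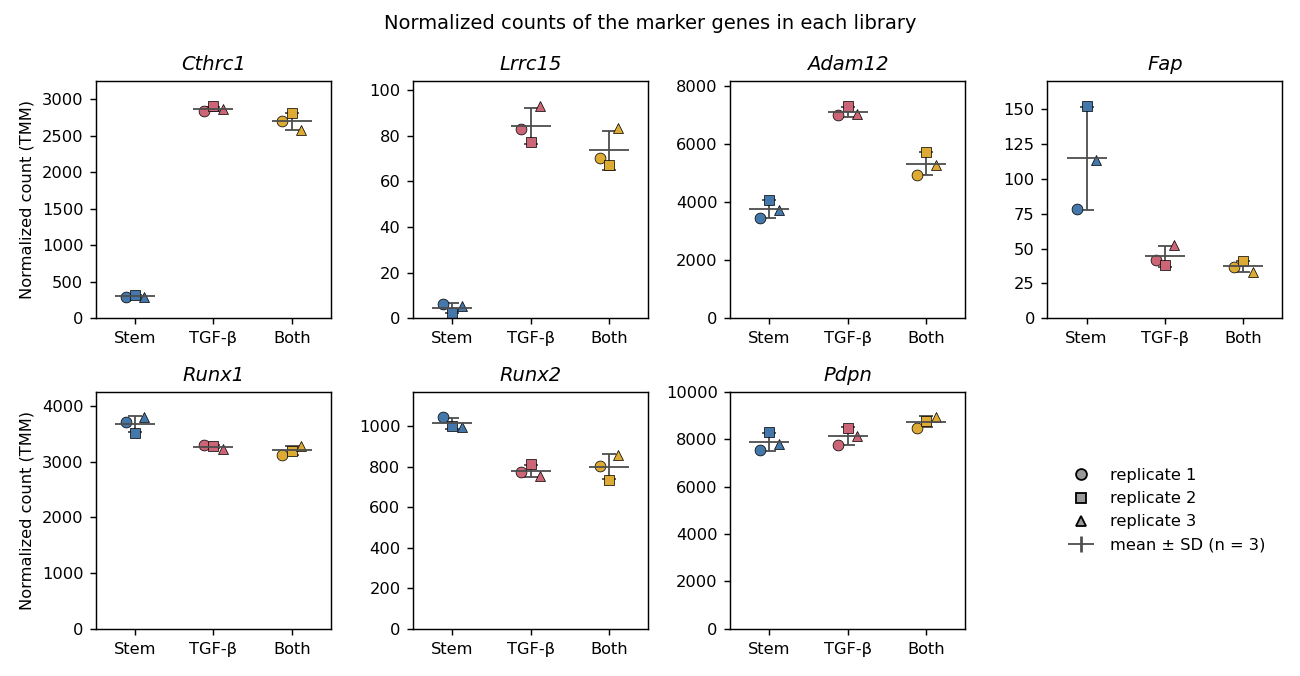
Normalized counts (TMM) of the 7 marker genes in each of the 9 libraries, 1 panel a gene with its own axis from 0, colored by group and shaped by replicate, with horizontal marks at the mean and bars of 1 SD (n = 3). Cthrc1, Lrrc15 and Adam12 are higher in TGF-β than in Stem, Fap, Runx1 and Runx2 are lower, and the Adam12 libraries of Both lie between the other groups.

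Fap (ENSMUSG00000000392) moved opposite to these 3. It was read at 78.5, 152 and 114 normalized counts in Stem, at 42.1, 38.5 and 52.7 in TGF-β, and at 36.9, 41.5 and 33.4 in Both. Every Stem library was above every treated library, but the Stem libraries themselves spread over a coefficient of variation of 32.1%, the widest in any group of a member apart from Lrrc15 in Stem. The means were 115 ± 36.8, 44.4 ± 7.38 and 37.2 ± 4.06 (SD, n = 3 each). Fap fell by 1.36 on the log2 scale from Stem to TGF-β (SE 0.232, 95% interval -1.87 to -0.85, edgeR adjusted p = 0.000192). The interval reaches below 2-fold, and edgeR's TREAT test against 2-fold gave an adjusted p of 0.120. PFI-3 gave -0.26 (95% interval -0.84 to 0.32, edgeR adjusted p = 0.608), an interval that allows a fall of 0.84 as well as a rise of 0.32. Between Stem and Both, Fap fell by 1.62 (SE 0.235, edgeR adjusted p = 5.26e-05), where the TREAT test also passed, with an adjusted p of 0.0205.

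Both Runx genes fell by small amounts that were larger than the spread between libraries. Runx1 (ENSMUSG00000022952) was read at 3710, 3518 and 3799 normalized counts in Stem, at 3294, 3279 and 3237 in TGF-β, and at 3126, 3197 and 3286 in Both. Runx2 (ENSMUSG00000039153) was read at 1046, 1002 and 997 in Stem, at 774, 812 and 755 in TGF-β, and at 805, 737 and 860 in Both. For both genes the Stem libraries were the highest, and TGF-β and Both overlapped. The group means of Runx1 were 3676 ± 144, 3270 ± 30.0 and 3203 ± 80.2, and those of Runx2 were 1015 ± 26.8, 780 ± 29.4 and 801 ± 61.5 (SD, n = 3 each). Runx1 fell by 0.17 on the log2 scale (SE 0.0390, 95% interval -0.25 to -0.084, edgeR adjusted p = 0.00184) between Stem and TGF-β. Runx2 fell by 0.38 (SE 0.0610, 95% interval -0.51 to -0.25, edgeR adjusted p = 0.000116). These falls, of a size that 40.3% and 30.4% of all genes exceeded in the downward direction, were not changed detectably by PFI-3. The PFI-3 difference was -0.030 for Runx1 (95% interval -0.11 to 0.055, edgeR adjusted p = 0.707) and 0.039 for Runx2 (95% interval -0.095 to 0.17, edgeR adjusted p = 0.762), and the latter turned to -0.016 without Both replicate 3. Between Stem and Both, Runx1 fell by 0.20 (edgeR adjusted p = 0.000591) and Runx2 by 0.34 (edgeR adjusted p = 0.000275). Runx2 shares its locus with Supt3 on the opposite strand, which held 332 to 487 counts and rose by 0.24 (edgeR adjusted p = 0.00858). The strand setting of the counting is not given in the sources used here, so reads of the pair may be mixed. The antisense genes Runx2os1, Runx2os2 and Runx2os3 had at most 13, 2 and 0 counts in a library.

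Pdpn (ENSMUSG00000028583) was abundant in every group, at 7542, 8294 and 7809 normalized counts in Stem, at 7736, 8487 and 8140 in TGF-β, and at 8479, 8775 and 8930 in Both. Stem and TGF-β overlapped throughout, and the lowest Both library lay just under the highest TGF-β library. The means were 7881 ± 381, 8121 ± 376 and 8728 ± 229 (SD, n = 3 each). Neighbouring groups were not called, with a log2 difference of 0.043 from Stem to TGF-β (95% interval -0.059 to 0.15, edgeR adjusted p = 0.417) and of 0.10 from TGF-β to Both (95% interval 0.00159 to 0.21, edgeR adjusted p = 0.200). The first of these turned to -0.075 when libraries were scaled by total counts. Only the outer groups differed, by 0.15 (SE 0.0469, edgeR adjusted p = 0.0135), and scaling by total counts reduced that to 0.040 with an edgeR adjusted p of 0.420. Total-count scaling moved the median of all genes by about -0.12 between Stem and TGF-β and by about -0.11 between Stem and Both.

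**Figure D2:**
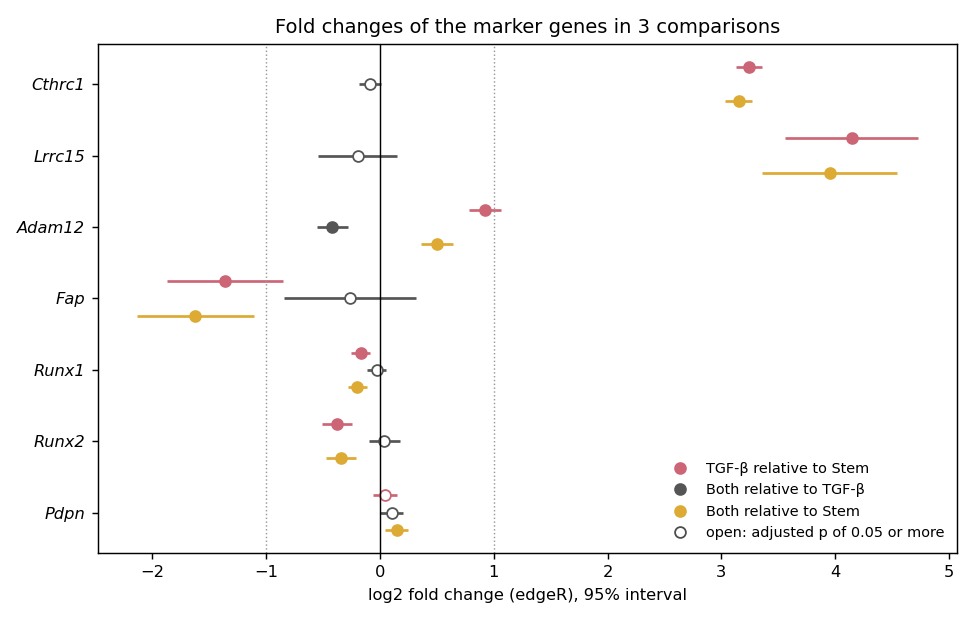
Log2 fold changes of the 7 marker genes (horizontal axis) with 95% intervals from edgeR for TGF-β relative to Stem, Both relative to TGF-β and Both relative to Stem. Filled points have an adjusted p below 0.05, dotted lines mark a log2 fold change of 1 in either direction, and Adam12 is the only gene with a filled point for Both relative to TGF-β, at -0.42.

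Set side by side, the PFI-3 differences of the members were -0.42 for Adam12, -0.26 for Fap, -0.19 for Lrrc15, -0.089 for Cthrc1, -0.030 for Runx1, 0.039 for Runx2 and 0.10 for Pdpn. The comparison of Stem with TGF-β and that of TGF-β with Both share the TGF-β libraries, so their values for a gene are not independent and no relation between them is drawn. Libraries of neighbouring groups did not overlap for 6 of the 7 genes between Stem and TGF-β, beside 76.8% of all genes, and for 2 of the 7 between TGF-β and Both (Cthrc1 and Adam12), beside 32.7%. Between Stem and Both, all 7 were called, beside a background of 73.3%, 3 passed the 2-fold minimum, beside 22.8%, and all 7 were without overlap, beside 74.7%. Cthrc1, Lrrc15, Adam12 and Pdpn were the 4 that rose (beside 36.6% of all genes), and Fap, Runx1 and Runx2 the 3 that fell (beside 36.6%). Of those past the 2-fold minimum, Cthrc1 and Lrrc15 were higher (beside 9.55%) and Fap lower (beside 13.2%).

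Levels of different genes were compared per length, as CPM, from TMM-scaled libraries, per kilobase of the longest annotated transcript. On this scale Pdpn was the most abundant member in every group, with 105 for Stem, 109 for TGF-β and 117 for Both. Cthrc1 went from the fourth place in Stem, at 6.32, below Runx1 at 15.2 and Adam12 at 11.9, to the second place in TGF-β, at 59.8. With the mean transcript length, Cthrc1 was also below Runx2 in Stem, and Adam12 was above Runx1. Adam12 stood at 22.5 in TGF-β and passed Runx1, which was at 13.5. Runx2 had 3.81 in Stem and 2.93 in TGF-β, and was below Runx1 in every group. Fap and Lrrc15 were the least abundant, at 0.972 and 0.0211 in Stem and at 0.376 and 0.386 in TGF-β, where the order of this pair depends on the length used: with the mean transcript length Fap had 0.576 and Lrrc15 still 0.386. In Stem, the mean transcript length raised Fap to 1.49 CPM per kilobase and left Lrrc15 at 0.0211.

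**Figure D3:**
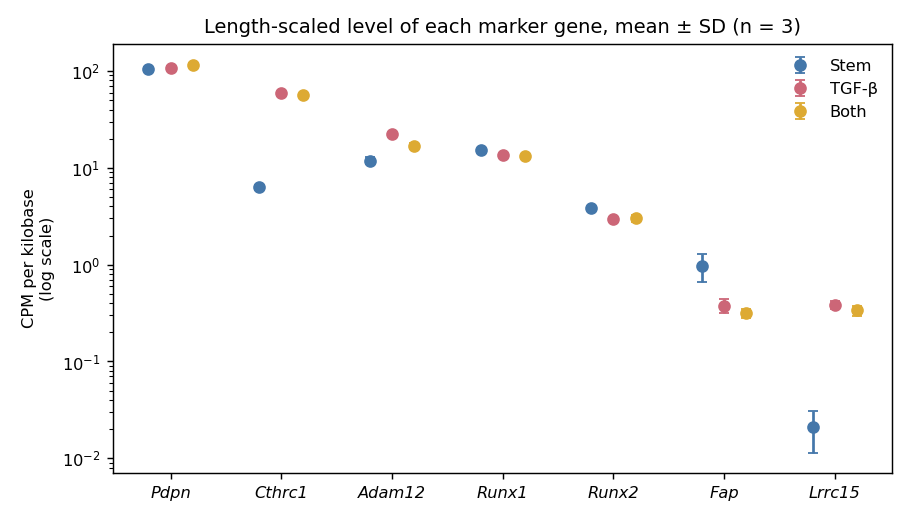
CPM per kilobase of the longest transcript (vertical log axis) for the 7 marker genes, as the mean of 3 libraries in each group with bars of 1 SD. Pdpn is highest in all groups, at 105 in Stem, and Lrrc15 in Stem is lowest, at 0.0211.

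Likeness between 2 genes was measured as the root mean square difference of their log2 CPM over the 9 libraries, each gene centred on its own mean. Among the members, Runx1 and Runx2 were the closest pair, at 0.107, and Fap and Lrrc15 the most distant, at 2.44. Cthrc1 and Lrrc15, both strongly higher in TGF-β, differed by 0.386. Outside the members, among the 10876 genes that averaged 100 normalized counts or more, the closest to Cthrc1 were Spsb1 (0.0442), Bcat1 (0.104) and Tmem151a (0.118). The median over the genes compared was 1.49. The closest to Adam12 were Sardh (0.0453), Tmem250-ps (0.0568) and Gsto1 (0.0622). The closest to Lrrc15 were Apobr (0.185), Jakmip2 (0.189) and Nupr1 (0.203), and to Fap Trib2 (0.139), Atp8b1 (0.175) and Ctso (0.194). Runx1 was nearest to Mettl6 (0.0186), Atm (0.0201) and Arhgap1 (0.0272), Runx2 to Snapc4 (0.0429), Meis2 (0.0435) and Ddx10 (0.0440), and Pdpn to Stt3b (0.0327), Ptges3 (0.0353) and Rabif (0.0366). A small value describes a shared pattern over the same 9 libraries, and genes that change little reach it more easily. The median over the genes compared, all of which averaged 100 normalized counts or more, was 0.231 for Runx1, 0.279 for Runx2 and 0.218 for Pdpn. It was 0.405 for Adam12, 0.751 for Fap and 1.73 for Lrrc15. Runx1 and Pdpn, the latter not called between Stem and TGF-β, differed by 0.157.

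The genes that work with the Runx factors went both ways. Of 14 tested partners and co-regulators, 5 rose and 8 fell between Stem and TGF-β, beside 37.3% higher and 37.7% lower over all genes, with a median log2 fold change of -0.20 beside a median of -0.0027 over all genes. Cbfb, which encodes CBFβ, the partner with which Runx proteins bind DNA, rose by 0.26 on the log2 scale (edgeR adjusted p = 0.00118), opposite to Runx1 and Runx2. Tle4 and Tle2, Groucho-type corepressors that Runx proteins recruit, fell by 2.71 (edgeR adjusted p = 4.68e-10) and 1.87 (edgeR adjusted p = 4.81e-09). Runx1t1, a corepressor of the ETO family, fell by 1.71 (edgeR adjusted p = 4.78e-11), and the kinase gene Hipk2 fell by 1.02 (edgeR adjusted p = 0.000270). Other genes of this list went the other way. Cbfa2t3 rose by 3.59 (edgeR adjusted p = 1.10e-08), from a mean of 10.7 to 130 normalized counts. Tle1 went from a mean of 1280 in Stem to 2090 in TGF-β. With PFI-3, 1 of the 14 rose and 3 fell, beside 3.54% higher and 5.38% lower over all genes. The riser was Tle4, by 0.59 (edgeR adjusted p = 0.0133). Runx3, the remaining Runx gene, had 0 to 3 counts in every library.

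Osteoblast genes, many of which are known targets or companions of RUNX2, rose more often than they fell. Of 12 tested among 16 listed, 7 rose, 2 fell and 3 were not called between Stem and TGF-β, beside 37.3% higher and 37.7% lower over all genes, with a median log2 fold change of 1.17. Those that rose included the collagenase gene Mmp13 (2.79, edgeR adjusted p = 6.89e-08), the matrix protein genes Sparc (2.08, edgeR adjusted p = 1.59e-12) and Spp1 (1.78, edgeR adjusted p = 2.56e-05) and the transcription factor gene Atf4 (1.85, edgeR adjusted p = 4.10e-09). The other risers had fewer reads: Col10a1 went from a mean of 1.79 normalized counts, at the floor, to 72.2. Dlx5 went from 35.0 to 88.2 and Msx2 from 13.5 to 27.3. The 2 that fell were Phex, from a mean of 151 to 9.57 normalized counts, and Mef2c, from 1022 to 728. All 7 rises and 1 of the falls passed the 2-fold minimum. Alpl was not called (0.021, edgeR adjusted p = 0.920). Sp7, Bglap, Bglap2 and Ibsp had at most 3 counts in any library and were not tested. With PFI-3, 3 of the 12 were called and all 3 fell, beside 5.38% lower over all genes. Among them were Mmp13, by 0.65 (edgeR adjusted p = 0.0202), and Sparc, by 0.31 (edgeR adjusted p = 0.000889).

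Over all tested genes, 37.3% rose and 37.7% fell between Stem and TGF-β, and 3.54% rose and 5.38% fell with PFI-3. Beside the members stood 30 other genes of activated fibroblasts, of which 23 rose and 6 fell between Stem and TGF-β (median 1.15), and 2 rose and 17 fell with PFI-3 (median -0.26). The rises that were largest among the well-read genes were those of the cytokine gene Il11 (3.67, edgeR adjusted p = 7.68e-10), the collagen gene Col11a1 (3.62, edgeR adjusted p = 2.83e-13), the crosslinking enzyme gene Lox (3.60, edgeR adjusted p = 1.03e-10) and Col1a1 (3.08, edgeR adjusted p = 1.48e-12). The rise of Cthrc1, 3.24, was of this size, and that of Adam12 was smaller. Past the 2-fold minimum, 17 of the 30 rose and 3 fell. Of the latter, Sfrp1 went from a mean of 143496 normalized counts in Stem to 18217 in TGF-β. Inhba went from 13637 to 6376 and Tgfbi from 5669 to 1614. With PFI-3, Col11a1 fell by 0.45 (edgeR adjusted p = 0.000312) and Col1a1 by 0.47 (edgeR adjusted p = 0.000553), near the -0.42 of Adam12. Lox, at -0.015 (edgeR adjusted p = 0.958), and Il11, at -0.23 (edgeR adjusted p = 0.233), were not called, like Cthrc1 and Lrrc15. Larger falls were also present, as 2 of the 30 fell past the 2-fold minimum and 0 rose past it. Postn went from a mean of 18524 normalized counts in TGF-β to 5551 in Both, and Col3a1 from 211014 to 104994. The list of TGF-β target genes, which includes Id genes, held 15, of which 9 rose and 5 fell (median 0.75). With PFI-3, 1 of the 15 rose and 6 fell. Pmepa1, a feedback inhibitor of the pathway, rose by 2.90 between Stem and TGF-β (edgeR adjusted p = 3.03e-12), and the BMP target genes Id2 and Id1 fell by 3.28 (edgeR adjusted p = 7.65e-11) and 2.21 (edgeR adjusted p = 1.54e-09).

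**Figure D4:**
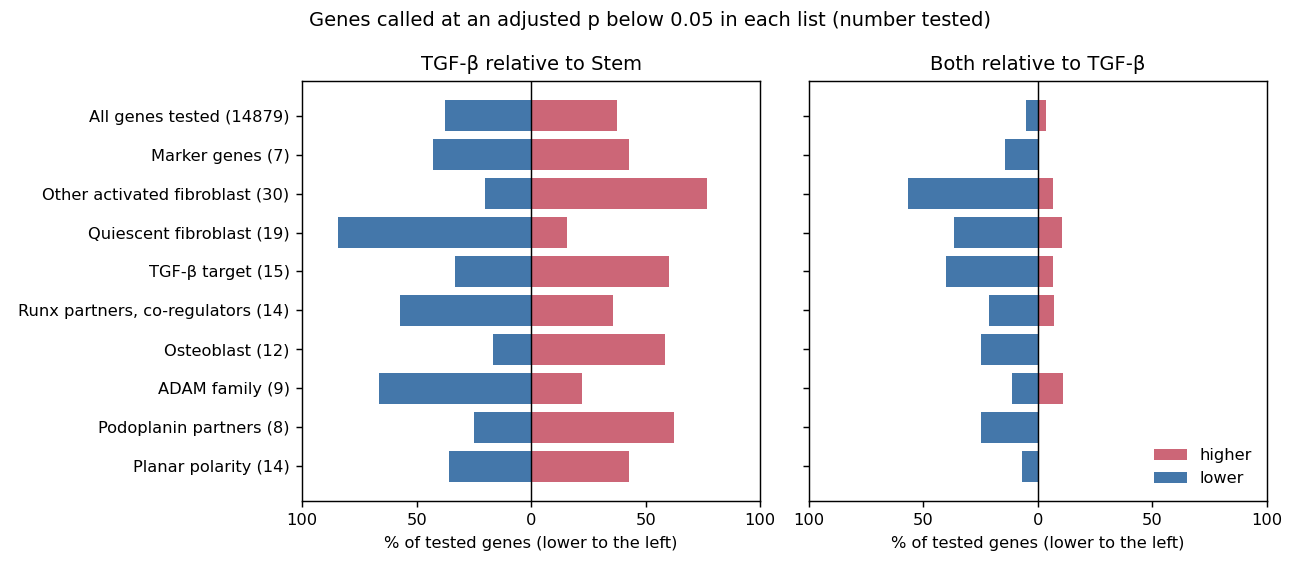
Share of the tested genes of each list called higher (right) or lower (left) at an adjusted p below 0.05, in percent, for TGF-β relative to Stem and Both relative to TGF-β, with all tested genes and the 7 marker genes for reference and the number tested in parentheses. Of the other activated fibroblast genes, 23 of 30 are higher in TGF-β, beside 37.3% of all tested genes. With PFI-3, 17 of 30 are lower, beside 5.38%. The marker genes split 3 and 3 in the first comparison.

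Relatives of single members gave mixed results, to be read beside all tested genes. Of these, 37.3% rose and 37.7% fell between Stem and TGF-β, and 3.54% rose and 5.38% fell with PFI-3. Among 6 tested proteases related to Fap, 2 rose (Prep by 0.72, edgeR adjusted p = 3.41e-09, and Dpp7 by 0.65, edgeR adjusted p = 2.15e-08) and 1 fell between Stem and TGF-β, and 1 rose and 1 fell with PFI-3. Dpp4, the closest relative of Fap and a marker of quiescent adventitial fibroblasts, had only 2 to 13 counts. Among 9 ADAM genes, 2 rose and 6 fell. Adam19, a metalloprotease close to Adam12, shared its course, with a rise of 0.79 (edgeR adjusted p = 1.42e-06) and a fall of 0.28 with PFI-3 (edgeR adjusted p = 0.0393), and Adam15 rose by 0.69 (edgeR adjusted p = 5.51e-09). Adam23, Adam22 and Adam33 fell by 1.84 (edgeR adjusted p = 6.40e-11), 1.76 (edgeR adjusted p = 1.62e-10) and 1.03 (edgeR adjusted p = 1.70e-05). With PFI-3, 1 ADAM gene rose (Adam22, by 0.50, edgeR adjusted p = 0.000692) and 1 fell. Of 4 tested leucine-rich repeat relatives of Lrrc15, 1 rose (Lrrc8a, 0.58, edgeR adjusted p = 1.60e-06) and 1 fell (Lrrc17, by 1.85, edgeR adjusted p = 1.80e-06), and with PFI-3 1 rose and 3 fell. The riser was Lrrc32, which encodes the GARP protein that holds latent TGF-β on the cell surface, by 0.21 (edgeR adjusted p = 0.0189), after 0.09 between Stem and TGF-β (edgeR adjusted p = 0.128).

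Of 8 tested partners of podoplanin, 5 rose, 2 fell and 1 was not called between Stem and TGF-β (median 0.52), and the 2 called with PFI-3 fell. Over all genes, 75.0% were called between Stem and TGF-β, 37.3% higher and 37.7% lower. With PFI-3, 3.54% of all genes rose and 5.38% fell. Msn, which encodes moesin, the link from podoplanin to actin, rose by 1.32 (edgeR adjusted p = 1.59e-11) and fell by 0.18 with PFI-3 (edgeR adjusted p = 0.00882). Cd44, the hyaluronan receptor, rose by 0.72 (edgeR adjusted p = 7.39e-08) and fell by 0.20 (edgeR adjusted p = 0.0298), Rhoc rose by 0.92 (edgeR adjusted p = 6.04e-08) and the tetraspanin gene Cd9 fell by 0.61 (edgeR adjusted p = 1.42e-05). Planar polarity genes, the Wnt branch to which CTHRC1 is linked, split into 6 that rose and 5 that fell of 14 tested (median 0.047), and the 1 called with PFI-3 fell. Fzd6, a Wnt receptor gene, rose by 2.03 (edgeR adjusted p = 1.21e-11). Fzd6 is also the annotated protein-coding neighbour of Cthrc1 on the side of the lower coordinates, which was looked up after the values were seen. Slc25a32, the neighbour on the other side, changed by 0.13 (edgeR adjusted p = 0.0185). Wnt5b, Prickle2 and Vangl2 fell by 1.86 (edgeR adjusted p = 2.02e-08), 1.61 (edgeR adjusted p = 3.54e-10) and 0.84 (edgeR adjusted p = 7.69e-07).

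The labelled cell type was checked on its own markers. The counts stand beside 37.3% of all tested genes rising and 37.7% falling between Stem and TGF-β. With PFI-3, 3.54% rose and 5.38% fell. Ly6a, which encodes Sca1, was read at 7635 ± 971 normalized counts in Stem (SD, n = 3) and 941 ± 133 in TGF-β, and of 6 progenitor markers 2 rose and 4 fell, while with PFI-3 1 rose and 1 fell. The 2 that rose between Stem and TGF-β were Gli1 and Klf4. Gli1 was at the floor in every Stem library, with a mean of 1.06 normalized counts, and at 11.6 in TGF-β. Klf4 went from a mean of 3859 to 6362. Of 19 quiescent fibroblast genes, 3 rose and 16 fell (median -1.74), and 2 rose and 7 fell with PFI-3. Of 7 mature smooth muscle markers, 1 rose and 3 fell, and the 2 called with PFI-3 fell. Podoplanin also marks lymphatic endothelium, whose 6 markers summed to 51.3 to 58.4 normalized counts in a Stem library, 110 to 123 in TGF-β and 116 to 133 in Both. Among the 3 tested, 2 rose between Stem and TGF-β, and 1 fell with PFI-3. Vascular endothelial markers summed to 115 to 252 normalized counts in a Stem library, 60.4 to 93.7 in TGF-β and 52.7 to 70.1 in Both. Of the 4 tested, 1 rose and 2 fell between Stem and TGF-β. With PFI-3 none of these 4 was called by edgeR or DESeq2, and 1 had an unadjusted p under 0.05. Leukocyte markers summed to 507 to 610, 318 to 349 and 445 to 452, with 2 of 4 tested rising and 1 falling, and 2 rising with PFI-3. Ptprc, the pan-leukocyte gene, had at most 3 counts, and Adgre1, Itgam and Cd3e were at 0. The 4 tested genes were read in every group. In Stem, TGF-β and Both, Csf1r had means of 28.5, 76.1 and 138 normalized counts and Cd68 of 3.53, 13.2 and 14.3. Those of Cd14 were 408, 137 and 150, and those of Lyz2 were 114, 109 and 145. These cell types' part in the members' values was not tested. Markers of hepatocytes (up to 2.93 normalized counts in a library in sum) and of epithelium (up to 11.9) were too low to test. The total counts of a library were between 35686291 and 47741128, the TMM factors 0.967 to 1.08, and the biological coefficient of variation between libraries of a group was 6.13%.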

How the data were processed

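Total RNA of 9 AdvSca1-SM cultures was depleted of ribosomal RNA and sequenced. Per Ensembl gene, the authors deposited raw read counts, with 1 column per library and no normalization. The study's text names trimming with Flexbar and alignment with STAR, whereas the submitters' processing notes name HISAT2 2.2.1, SAMtools 1.13, HTSeq 0.11.3 and GRCm39. The strand setting and the handling of reads with several alignments are not given in the sources used here. The labels' extraction text speaks of hepatic tissue, and the sample labels of aorta and carotid artery. The study calls the 3 replicates of a condition independent. Whether they came from separate sorts is not given, and p-values measure only the spread between these libraries.

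Groups were taken from the sample titles. The tests used edgeR 4.0.16 under R 4.3.3 (filterByExpr, TMM, quasi-likelihood test, Benjamini-Hochberg adjustment over 14879 genes), fitted once to the 9 libraries with a term for group alone. A gene was called at an adjusted p under 0.05, and past the threshold where the log2 fold change was also over 1 in either direction. Normalized counts are scaled to a mean library of 41184338 counts. Standard errors were derived from the fold change and its F statistic, and 95% intervals from the t distribution with the fit's degrees of freedom. The pipeline was tested on simulated counts. Libraries held 35686291 to 47741128 counts, and the floor was 3 counts.

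The marker genes and gene lists were chosen with earlier results of these data known. From each list at most 4 genes are named by rule. They are those with the largest absolute log2 fold change between Stem and TGF-β among called genes with at least 100 mean normalized counts. In addition, 6 relatives of a marker gene (Runx3, Cbfb, Dpp4, Adam19, Adam33 and Lrrc32) are named whatever their values. Further genes of the leukocyte, progenitor, Runx partner, osteoblast and other activated fibroblast lists, among them those at or near 0, were named after their values were seen. Genes overlapping or neighbouring a marker gene were taken by position, after the values were seen. Transcript lengths and overlaps came from an annotation of build GRCm38, and upstream windows from RefSeq on GRCm38.p6. Protein sequences and the windows of Cthrc1, Fap and Adam12 were not analysed here. Results for 2 items withheld for evaluation are not reported here.

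The alternatives were the DESeq2 1.42.0 test, scaling by DESeq2's size factors or by total counts, dropping the filter or asking for a mean of 10 counts, fitting the 6 libraries of a comparison alone, a prior count of 2, a replicate block, the TREAT test against 2-fold, each library left out in turn, and the mean transcript length.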

Additional observations from a re-analysis of the deposited data

How the results depend on the processing

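The number of marker genes called under every alternative but TREAT, which tests the 2-fold minimum, was 6 for TGF-β against Stem, 1 for Both against TGF-β, and 6 or 7 for Both against Stem. Past the 2-fold minimum, TREAT included, it was 2 or 3, 0 and 3 in the same order. Of the marker genes' fold changes, 354 alternative values kept their direction and side of the threshold and 2 reversed: Pdpn for TGF-β against Stem, to -0.075 with total counts, and Runx2 for Both against TGF-β, to -0.016 without Both replicate 3 (up to 0.092 without another library). For Pdpn in Both against Stem, total counts took away the call (0.040, edgeR adjusted p = 0.420). For Fap in TGF-β against Stem, TREAT did not call a fall beyond 2-fold (adjusted p = 0.120). Correlations of deviations between same-numbered libraries ranged from -0.053 to 0.442, with a median of 0.184 against -0.163 for other pairs. The replicate 2 pairs were the 3 highest, at 0.381 to 0.442, but not every pair was over 0.1 and the labels tie the numbers to no batch, so pairing was not assumed. With the replicate block, calls over all genes for Both against TGF-β went from 1327 to 2309. The block left 6, 1 and 7 marker genes called in the 3 comparisons, and with it the PFI-3 difference of Adam12 had an edgeR adjusted p of 1.10e-05 and that of Pdpn one of 0.0541. List counts moved by over 1.5 times in 82 cases and stayed within that in 836, and 18 of 21 levels per kilobase moved with the mean transcript length. Depth limits Lrrc15 and Fap, which are the least read marker genes.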

Other observations

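Within the quiescent fibroblast list, most of which fell, 2 genes went strongly the other way, chosen here after their values were seen. Pi16, a marker of adventitial fibroblasts at rest, rose by 3.51 on the log2 scale between Stem and TGF-β (edgeR adjusted p = 3.66e-13), from 508 ± 22.8 to 5771 ± 158 normalized counts (SD, n = 3), and fell by 0.59 with PFI-3 (edgeR adjusted p = 4.30e-05). Mfap5, a microfibril gene, rose by 2.71 (edgeR adjusted p = 6.97e-11) and fell by 0.41 with PFI-3 (edgeR adjusted p = 0.00974). Both genes had the directions of Adam12 in the 2 comparisons, which share the TGF-β libraries. Fap, counted among the activated markers, fell between Stem and TGF-β, as did 16 of the 19 quiescent fibroblast genes and 37.7% of all tested genes.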
